A study of Mus musculus with 2 samples.

Results

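Transcripts annotated as targets of nonsense-mediated decay (NMD) were described in regulatory T cells, the CD4 T cells that restrain immune responses under the control of the transcription factor Foxp3. A transcript was included when GENCODE M21 gives it the type nonsense_mediated_decay and its protein-coding parent gene reached a TPM (length-scaled abundance) of 5 in each of 2 libraries. The rule selected 4765 of the 7186 NMD transcripts and of the 141862 annotated transcripts. They belonged to 2860 genes, out of 8898 protein-coding genes that reached the same TPM. Members were thus selected on gene TPM, and gene levels are given only as a description.

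Polyadenylated RNA came from primary, inflammation-experienced regulatory T cells of male Mus musculus aged 7 weeks, which the labels trace to activated regulatory T cells. The labels name no genotype, strain, allele or inflammatory agent, and no untreated control. They give 1 biological replicate and 2 technical replicates, called library 1 and library 2, so there was 1 group and no test between conditions. SDs (n = 2 libraries) measure the difference between 2 libraries of 1 biosample and not the spread between animals.

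In NMD, a ribosome that stops upstream of an exon junction meets the protein complex left there by splicing, and the factor Upf1 then triggers decay of the messenger RNA. Annotators give the NMD type to a transcript whose stop codon lies well before its last exon junction, so the type is a prediction from sequence and no measurement of decay. Many splicing factors are known to limit their own protein by including a "poison" exon that carries a stop codon. The level of such a transcript reflects both how often it is made and how fast it is degraded, and RNA levels alone cannot tell these apart.

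The stop codon of 977 members (20.5%) lay in an exon that overlaps no exon of a protein-coding transcript of the same gene. The coding end of such an exon, which holds the annotated stop codon, is shown for 8 of them. They are in genes for splicing, cytokine response, transcription, respiration, selenoprotein and polyamine functions. Whether the frame upstream of the exon is that of a coding transcript was not tested, and Ndufs4-204 has no annotated start. Each sequence runs 5′ to 3′ on the strand of the gene from the first base of the exon to the stop codon, which is in capitals. Sequences are from the GENCODE M21 transcripts and positions are mm10.
Srsf3-201, chr17:29039454-29039487, plus strand: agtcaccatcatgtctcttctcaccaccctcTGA
Tra2b-206, chr16:22259181-22259261, minus strand: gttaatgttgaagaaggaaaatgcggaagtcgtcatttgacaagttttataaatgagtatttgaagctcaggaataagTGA
Hnrnpll-203, chr17:80044976-80045022, minus strand: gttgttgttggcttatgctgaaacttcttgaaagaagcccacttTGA
Ikzf4-208, chr10:128643731-128643765, minus strand: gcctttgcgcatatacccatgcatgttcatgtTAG
Il4ra-205, chr7:125571934-125571953, plus strand: caagtaatgaaaatctgTGA
Ndufs4-204, chr13:114387442-114387457, minus strand: tgcgttccagtctTAA
Sat1-207, chrX:155215217-155215230, minus strand: gttacagtctcTAG
Selenok-203, chr14:29970800-29970812, plus strand: gttcctgcccTAG

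These exons varied in length. The Srsf3 exon is 456 bases long and the Tra2b exon 276, against 114 in Il4ra, 110 in Sat1, 83 in Hnrnpll, 72 in Ikzf4, 63 in Selenok and 50 in Ndufs4. Over the 977 members with such an exon, the median length was 116 bases (quartiles 85 and 162). In 348 of them (35.6%) the length was a multiple of 3, about the share that arbitrary lengths would give. Whether these exons would otherwise keep the frame was not tested.

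NMD transcripts held a modest share of the RNA of their genes, below the share they make up of the annotation. They were 18.8% of the 25405 transcripts annotated in the 2860 genes. In library 1 they held 884000 of 7682016 expected counts, which is 11.5% (95% Wilson interval 11.485 to 11.53). In library 2 they held 717802 of 6350135, which is 11.3% (11.279 to 11.328). The mean share was 11.4% ± 0.144 (SD, n = 2), and the libraries differed by more than these intervals, which cover counting error only. Per unit of length the share was larger, at 15.1% and 14.7% of TPM, because NMD transcripts had a median length of 1087 bases against 1752.5 for protein-coding ones.

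**Figure D1:**
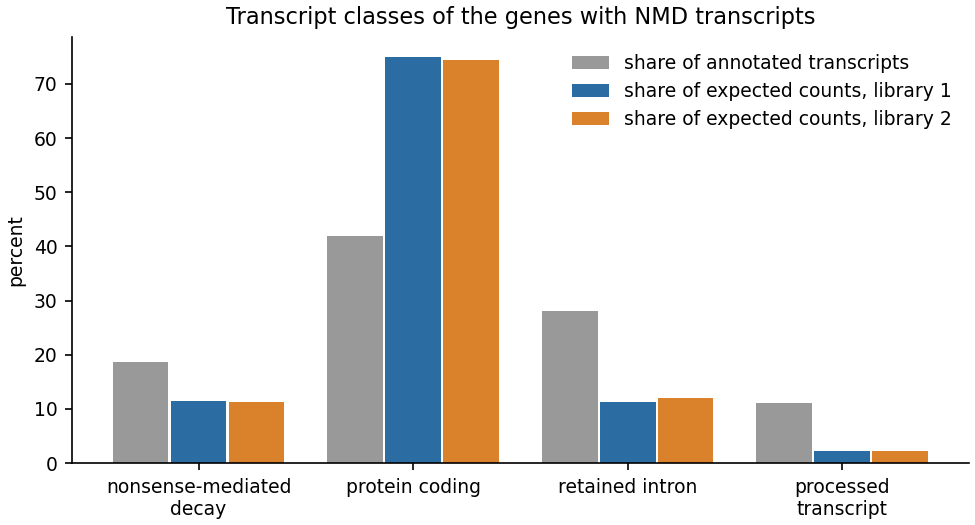
Percent of the annotated transcripts of the 2860 genes (grey) and percent of their expected counts in library 1 (blue) and library 2 (orange) for 4 transcript classes. NMD transcripts held 11.5% and 11.3% of counts, close to retained-intron transcripts, while protein-coding transcripts held 74.97% and 74.5%.

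In the same genes, protein-coding transcripts held 74.97% of counts in library 1 and 74.5% in library 2. Retained-intron transcripts held 11.3% and 12.03%, and processed transcripts, which have no coding frame, held 2.17% and 2.16%. IsoPct, the percent of a gene's TPM that 1 transcript holds, was low for most NMD transcripts, with a median of 1.86 in library 1 and 1.83 in library 2. The medians were 4.33 and 4.575 for protein-coding transcripts and 2.88 and 3.60 for retained-intron transcripts. The NMD class was nevertheless spread wider than the retained-intron class at the top: 115 of 4765 NMD transcripts were at an IsoPct of at least 50 in both libraries, against 31 of 7151 retained-intron and 1173 of 10650 protein-coding transcripts.

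Members were thus mostly low, with a long upper tail. IsoPct was 0 in both libraries for 1292 members (27.1%) and above 0 in both for 2495 (955 of them, or 20.04% of all members, at least 10 in both). It was 0 only in library 1 for 495 and only in library 2 for 483. At least 100 expected counts in each library stood behind 960 members, and 1413 were under 3 counts in both, the limit that a count of 0 allows. At the edge of the selection, Dnajc18-202, Fsd1l-202 and Hivep1-203 had parent genes with a lower TPM of 5, 5.01 and 5.01, and their IsoPct ranged from 0 to 18.24. Just outside lay Dnah7b-203, Adam8-208 and Dock9-209, with parent genes at 4.97, 4.96 and 4.95. Of these, Dnah7b-203 had an IsoPct of 55.07 and 38.13, and Adam8-208 and Dock9-209 were listed at 0 in both libraries.

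The 2 libraries ranked the members alike where counts were high in both. Across all members, IsoPct in library 2 followed library 1 with a Pearson r of 0.899 and a Spearman rho of 0.748, given as a description because transcripts are not replicates and share the reads of their gene. Over the 960 members with at least 100 counts in each library, r was 0.931 and rho 0.916. The median absolute difference in those was 3.47 percentage points, with a 90th percentile of 12.6. The limit of 100 counts in each library leaves out members with counts in only 1 library. Such members reached 1375 counts in library 1 at an IsoPct of 0 in library 2. They reached 504 counts in library 2 at an IsoPct of 0 in library 1. The higher r and rho therefore do not describe every member with many counts.

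**Figure D2:**
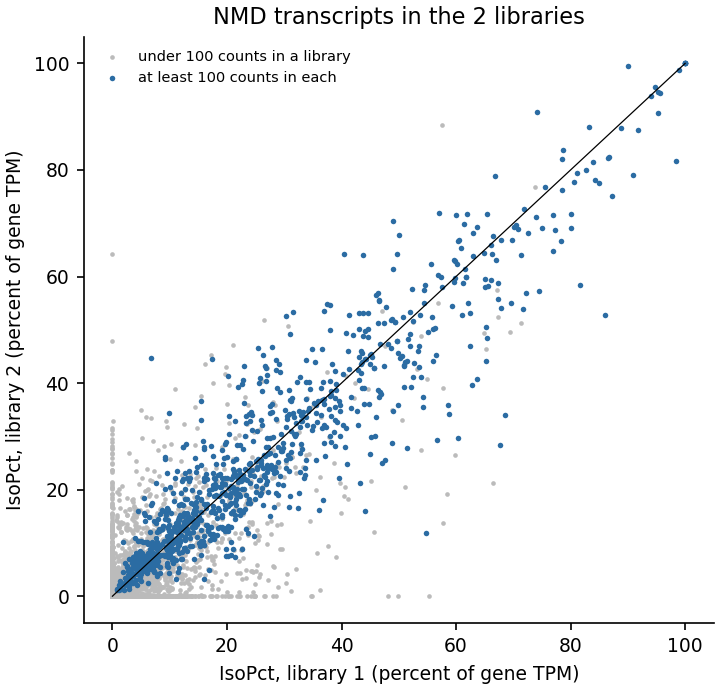
IsoPct of each of the 4765 NMD transcripts in library 1 (x axis) against library 2 (y axis), in percent of gene TPM, with the line of equal values. Transcripts with at least 100 counts in each library (blue) lie along the line (Pearson r 0.931). Those with fewer in 1 library or both (grey) spread along both axes.

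Summed over all NMD transcripts of a gene, the NMD percent had a median of 6.19 over the 2860 genes as the mean of both libraries (5.735 in library 1, 5.86 in library 2). The quartiles were 0.885 and 19.8, and the 90th percentile was 41.8. In 957 genes (33.5%) it was at least 10 in both libraries, and in 465 genes it was 0 in both. In 165 genes it was at least 50 in both. An NMD transcript was the highest transcript of its gene in both libraries in 267 genes, the same transcript in 263. Of the 165 genes, 6 have no other kind of transcript in the annotation and are therefore at 100 by construction. All 6 are readthrough genes, among them Gm20605, Gm42688, Gm49384 and Gm20458. The number of annotated transcripts moved the median little, from 7.66 in genes with 2 to 4 transcripts to 6.21 in genes with 13 to 62. The gene TPM moved with it more: the median was 8.655 in the 209 genes with a mean TPM below 10 and 4.125 in the 600 genes above 100.

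Several genes with many counts were assigned almost wholly to an NMD transcript. Ppia encodes cyclophilin A, an abundant prolyl isomerase. Ppia-201 (chr11:6415870-6419815) had an IsoPct of 98.90 in library 1 and 98.78 in library 2, with 41250 and 32155 expected counts. The highest protein-coding transcript, Ppia-202, had 0.15 and 0.17. Both libraries gave the same order, but 80.5% of the 50-base windows of Ppia-201 also occur in transcripts of other genes, and only 48 of its 697 windows are in no other Ppia transcript.

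Lars2, the mitochondrial leucyl-tRNA synthetase, showed the same kind of assignment with almost no sequence in other genes. Lars2-209 (chr9:123366954-123462666) had an IsoPct of 95.62 and 94.48 (95.05 ± 0.806, SD, n = 2) and Lars2-201, the highest coding transcript, 3.25 and 3.63. Both libraries placed Lars2-209 far above every coding transcript of the gene, but only 54 of its 3707 windows are in no other Lars2 transcript. Kmt2e encodes a SET-domain chromatin regulator. Kmt2e-207 (chr5:23434441-23486400) had 88.83 and 87.87 (88.35 ± 0.679, SD, n = 2) against 5.64 and 6.35 for Kmt2e-202. Kmt2e-207 is 2061 bases long and ends 17835 bases upstream of the end of Kmt2e-202, which is 7317 bases long. Gbp4, an interferon-induced guanylate-binding protein, had 56.91 and 60.25 in Gbp4-202. Windows found in no other transcript of the gene numbered 46 of 2012 in Kmt2e-207 and 47 of 4460 in Gbp4-202. Smc4, a condensin subunit, had 32.15 and 40.21 in Smc4-207, below the 51.07 and 48.40 of the coding Smc4-206. In expected counts the order was the reverse. Smc4-207 had 8352 and 5974 counts on 4057 bases, and Smc4-206 had 3687 and 1999 on 1163 bases. Genes with fewer counts reached similar values. Mrps14-201, of a mitochondrial ribosomal protein, had 93.97 and 93.80, Commd2-201 had 95.24 and 90.63, and Mmaa-202, of a mitochondrial cobalamin-handling protein, had 89.97 and 99.44 on 201 and 156 counts. Mrps14-201 and Commd2-201 end 2350 and 2010 bases upstream of the highest coding transcript. Gm28036-201, in which 99.1% of windows occur in other genes, had 95.20 and 94.65.

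Il4ra encodes the alpha chain of the interleukin-4 receptor, and an alternative exon with a stop codon is known to give a secreted form of this receptor in mice. Il4ra-205 (chr7:125552287-125577967), which carries the stop exon printed above, had an IsoPct of 73.97 in library 1 and 71.11 in library 2 (72.5 ± 2.02, SD, n = 2), with 6657 and 5170 counts. Il4ra-201, the highest coding transcript, had 18.61 and 22.95. The NMD-annotated transcript was thus the higher one in both libraries. Il4ra-205 ends 1507 bases upstream of Il4ra-201, so the last part of Il4ra-201 is not part of Il4ra-205.

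**Figure D3:**
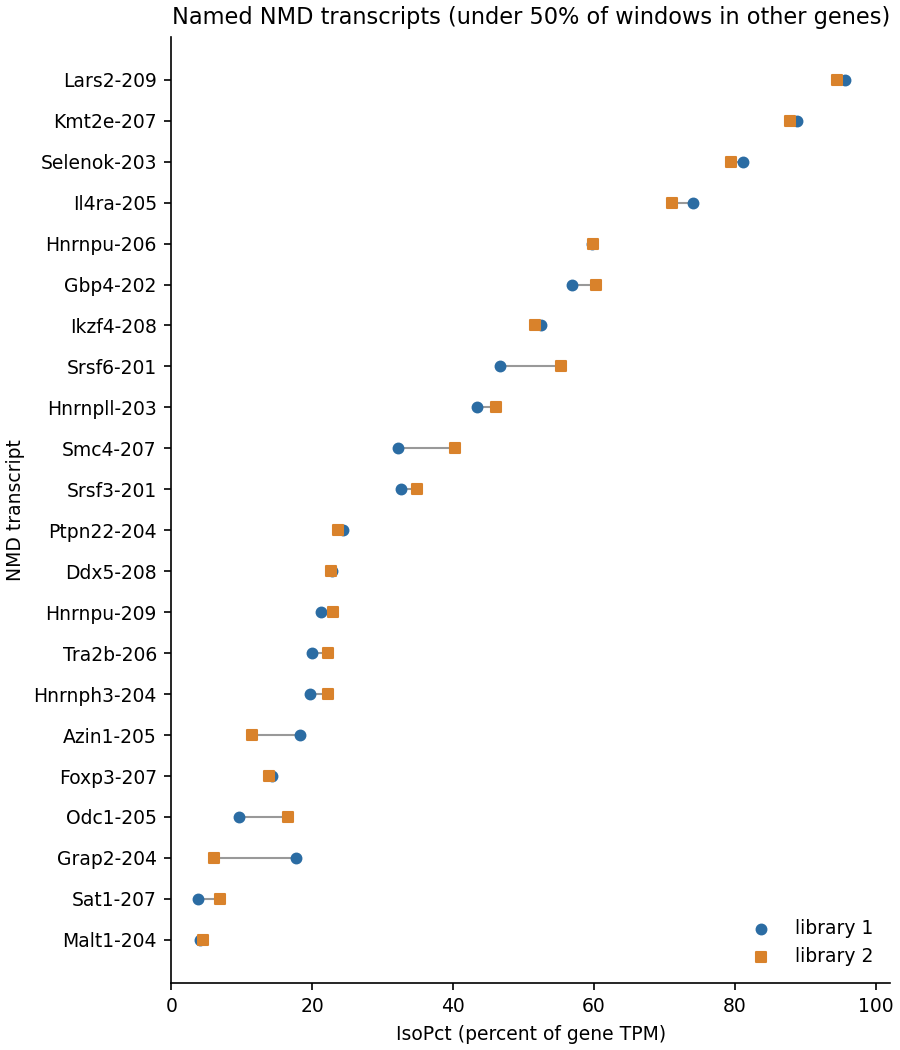
IsoPct (percent of gene TPM) in library 1 (blue circles) and library 2 (orange squares) of NMD transcripts named by count or from 5 of the gene lists, where under 50% of windows occur in other genes, with a grey line joining the libraries. Values run from 95.62 and 94.48 for Lars2-209 to 4.06 and 4.55 for Malt1-204, and Grap2-204 is among those whose libraries lie far apart.

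The gene lists are set beside all genes that passed the TPM minimum, of which 32.1% had an NMD transcript. Of those with one, 33.5% were at an NMD percent of at least 10 in both libraries.

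SR proteins bind exonic enhancers and promote exon inclusion, and their genes hold the best-known poison exons. Of 17 genes of this list that passed the TPM minimum, 16 had an NMD transcript, and the median NMD percent of those 16 was 8.825 against 6.19 over all 2860 genes. At least 10 in both libraries were 7 of the 16, and 16 of their 27 members (59.3%) had the stop in an exon outside the coding transcripts, against 20.5% of all members. Srsf6-201 had an IsoPct of 46.63 and 55.31 (50.97 ± 6.14, SD, n = 2). The coding Srsf6-203 had 50.27 and 42.54, so the order differed between the libraries. In expected counts Srsf6-203 was the higher in both, with 3614 and 2167 against 1559 and 1310. The stop of Srsf6-201 is also the stop of a transcript annotated as coding. Srsf3-201, which holds the 456-base exon, had 32.62 and 34.82 (33.7 ± 1.56, SD, n = 2), with 6335 and 5271 counts. Srsf2-204 had 28.84 and 27.95, and 70.2% of its windows occur in other genes. Tra2b-206 had 19.94 and 22.17, with 35.2% in other genes. The list was not uniform, since Srrm1 stood at 0 in both libraries and Srsf5 at 0.05 and 0. Srsf2-204 has no 50-base window of its own and Srsf3-201 has 6, so their counts were told apart from those of other transcripts almost wholly by the model.

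hnRNP proteins bind nascent RNA and often oppose exon inclusion. An NMD transcript was annotated for 14 of 26 genes, with a median NMD percent of 18.3, and 8 of the 14 were at least 10 in both libraries. Only 2 of their 28 members (7.14%) had the stop in an exon outside the coding transcripts. The median differed between libraries, at 13.47 and 21.845. Hnrnpu, a nuclear RNA- and chromatin-binding protein, stood at 81.05 and 82.74. Most of that was Hnrnpu-206, at 59.75 and 59.80 (59.8 ± 0.0354, SD, n = 2) on 22159 and 17200 counts, and Hnrnpu-209 added 21.30 and 22.94. Both are tagged as readthrough transcripts in the annotation. Hnrnpu-209 is 351 bases long, has no annotated start, and held 854 and 713 counts. That was 2.71% and 2.93% of the expected counts of the gene, against 70.4% and 70.8% for Hnrnpu-206. The highest coding transcript of the gene, Hnrnpu-201, had an IsoPct of 6.73 and 6.63. Hnrnpll, which controls alternative splicing of the phosphatase CD45 in T cells, had 43.32 and 46.03 in Hnrnpll-203 (44.7 ± 1.92, SD, n = 2). Hnrnpa2b1 and Hnrnpk were at or under 1.31 in both libraries.

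Of 41 other splicing and RNA-binding factors, 28 had an NMD transcript, with a median of 13.6 (15.95 in library 1 and 12.355 in library 2), and 16 were at least 10 in both libraries. The stop lay in an exon outside the coding transcripts in 23 of their 76 members (30.3%). The highest mean of both libraries was that of Tardbp, which encodes the RNA-binding protein TDP-43 and has 10 NMD transcripts, at 46.31 and 41.87. Snrpa1, a U2 snRNP protein, had 43.50 and 39.15 in Snrpa1-201. Clk2 and Clk1, kinases that phosphorylate SR proteins, had 38.16 and 28.90, and 32.76 and 29.38. Qk, which binds introns and influences RNA stability, had 48.91 and 34.76, and U2af1, which recognises the end of introns, 29.26 and 38.28 in U2af1-208, in which 62.6% of windows occur in other genes. Qk was lower in library 2 and U2af1 higher. Windows found in no other transcript of the gene numbered 0 of 906 in Snrpa1-201 and 0 of 926 in U2af1-208. The counts of Snrpa1-201 and U2af1-208 were thus told apart from those of other transcripts almost wholly by the model. In Ddx5, an RNA helicase, Ddx5-208 had 22.84 and 22.72 on 9040 and 8184 counts.

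Among the NMD factors, of 22 genes that passed the TPM minimum, 4 (18.2%) had an NMD transcript, against 32.1% of all genes. Smg1, the kinase of Upf1, was at 0 in both libraries, Smg5 at 0 and 2.07, and Smg6, an endonuclease, at 0 and 0.42. Magohb, a subunit of the exon junction complex, was the exception, at 57.69 and 38.99.

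Cytosolic ribosomal protein genes had an NMD transcript in 19 of 81, with a median of 5.2. Rpl14 stood at 94.67 and 95.65 and Rpsa at 92.52 and 92.40, and 7 of the 19 were at least 10 in both libraries. In the main transcript of each, Rpl14-205 and Rpsa-206, other genes share 59.7% and 75.6% of the windows. Rps18 and Rpl37a were at or under 0.18 in both libraries.

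Among 39 regulatory T cell genes that passed the TPM minimum, 5 had an NMD transcript. Foxp3-207 (chrX:7579669-7593105) had an IsoPct of 14.34 and 13.79 (14.1 ± 0.389, SD, n = 2) on 313 and 246.5 counts, with posterior SDs of 46.4 and 39.2 counts. The main coding transcript, Foxp3-206, had 50.86 and 58.53. Foxp3-206 was thus above Foxp3-207 in both libraries, also in expected counts, with 1603 and 1511. Foxp3-207 held 8.26% and 8.30% of the expected counts of the gene. The shares of the other Foxp3 transcripts are not given here. Ikzf4 encodes Eos, a zinc-finger partner of Foxp3. Ikzf4-208 had an IsoPct of 52.45 and 51.63 (52.0 ± 0.580, SD, n = 2), above the 38.21 and 38.64 of the coding Ikzf4-201. In expected counts the order was the reverse. Ikzf4-208 had 2014 and 1382 counts on 3449 bases, and Ikzf4-201 had 2201 and 1551 on 5150 bases. Ikzf4-208 has 118 windows of its own and none in other genes. Tgfb1 had 4.12 and 0.82, and Entpd1 was at 0 in both.

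T cell receptor signalling genes had an NMD transcript in 7 of 33, with a median of 2.685. Ptpn22, a phosphatase that restrains the receptor, had 24.31 and 23.71 in Ptpn22-204 (24.0 ± 0.424, SD, n = 2). Grap2, an adaptor of the receptor complex, had 17.73 and 6.02 in Grap2-204, so its libraries lay far apart. Malt1-204 had 4.06 and 4.55, and Rasgrp1 was at 0 in both.

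**Figure D4:**
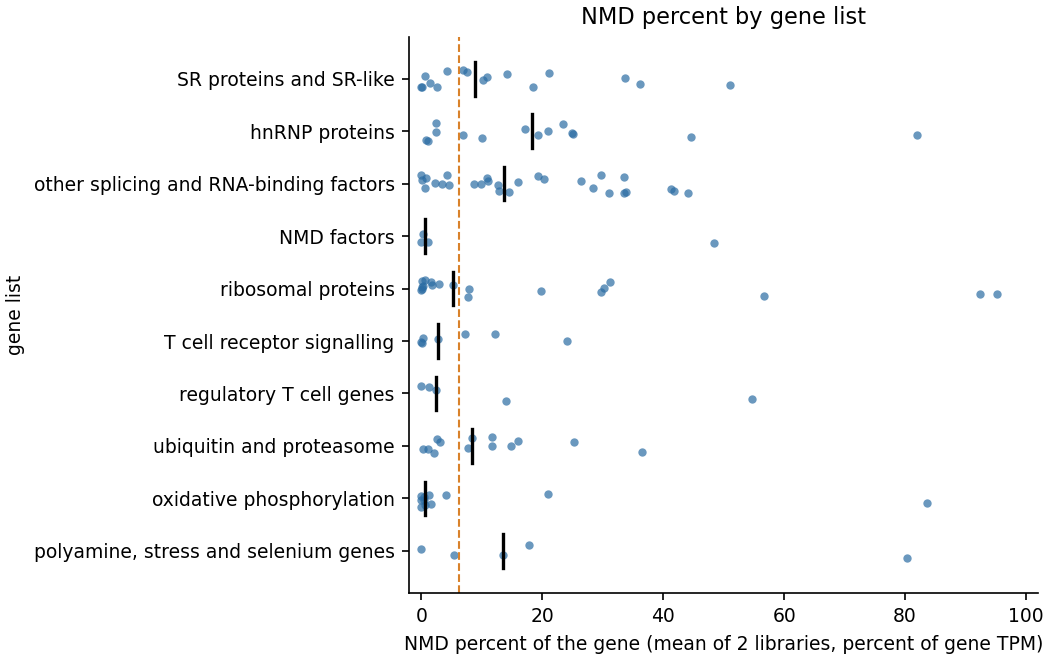
NMD percent of each gene with an NMD transcript (blue points, mean of 2 libraries, percent of gene TPM) in 10 gene lists, with the list median (black bars) and the median of all 2860 genes (dashed line, 6.19). The hnRNP list has the highest median of the 2-library means (18.3, from 13.47 in library 1 and 21.845 in library 2), below the other splicing factors in library 1 (15.95), and the oxidative phosphorylation list has 1 gene, Ndufs4, far above the others.

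Oxidative phosphorylation genes were mostly low, and the proteasome list had a median above that of all genes. Of 42 oxidative phosphorylation genes, 11 had an NMD transcript, with a median of 0.63, and 2 were at least 10 in both libraries. Ndufs4, a complex I subunit, stood at 84.96 and 82.33, split between Ndufs4-202 (44.71 and 50.18) and Ndufs4-204 (40.25 and 32.15). Ndufa10 followed at 21.71 and 20.09. Of 40 ubiquitin and proteasome genes, 13 had one, with a median of 8.35, and 5 were at least 10 in both libraries. Psmb9, a subunit of the immunoproteasome, had 36.90 and 36.05, and Psme1, of the proteasome activator, 25 and 25.39.

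Among 20 polyamine, stress and selenium genes, 5 had an NMD transcript. Selenok, a selenoprotein of the endoplasmic reticulum, had 81.16 and 79.36 in Selenok-203 (80.3 ± 1.27, SD, n = 2) on 1851 and 1586 counts. A selenoprotein reads a UGA codon as selenocysteine, but the stop printed above for Selenok-203 is a TAG. Sat1, the acetyltransferase of polyamine breakdown, had 3.74 and 6.93 in Sat1-207. Odc1, which makes putrescine, had 10.47 and 16.49, and Azin1, which keeps it from degradation, 24.03 and 11.50, so the libraries differed in opposite directions.

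The annotated structure of the members followed the definition of the class. Of 4763 members with an annotated stop codon, 4733 (99.4%) had it more than 50 bases before the last exon junction, against 63 of 7876 protein-coding transcripts of the same genes (0.800%). This difference is what the annotators' type rests on. The median distance was 322 bases (quartiles 159 and 675). A start codon was annotated for 3342 members and was shared with a coding transcript in 3253 (97.3%). The coding frame was short, with a median of 288 bases against 1266 in the coding transcripts. The stop codon was TGA in 57.6% of members, TAA in 22.4% and TAG in 19.99%, against 52.3%, 25% and 22.7% of coding transcripts.

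IsoPct moved with the kind of stop. The stop lay in an exon with the same splice sites as a coding exon in 2240 members (47.0%), and there the median IsoPct was 1.66 and 1.615. It lay in a coding exon with another splice site in 1171 (median 1.96 and 2.01) and in an exon outside the coding exons in 977 (1.58 and 1.59). In the 85 members whose stop exon spans a coding-transcript intron, such as Ddx5-208, the median was 7.20 and 8.08. These 85 had the highest medians of the classes with more than 10 members. In 280 members the stop was that of a coding transcript (2.585 and 2.83). An IsoPct of at least 10 in both libraries was found in 32.9% of the 85, 27.1% of the 280 and 13.8% of the 977. By the distance from stop to last junction, medians were 0.91 and 1.10 at 51 to 200 bases, 1.68 and 1.64 at 201 to 500, 3.58 and 3.29 at 501 to 1000, and 3.00 and 3.28 beyond.

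GENCODE grades the evidence for each transcript by a support level, with 1 the best. The 1305 members at level 1 had median IsoPct of 4.82 and 5.05 and held 48.7% and 48.9% of the NMD counts. The 1612 at level 5 had 0.55 and 0.67, yet held 27.5% and 26.6% of the counts. Ppia-201 and Lars2-209 are both at level 5.

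How well a read can tell a member from its neighbours was measured with 50-base windows along each transcript. The median member had 48 windows found in no other transcript of its gene, or 6.49% of its windows, close to the 49 that a single new splice junction gives. No such window was found in 621 members (13.03%). In 233 (4.89%) at least 50% of the windows also occur in other genes. Of the 115 members with an IsoPct of at least 50 in both libraries, 18 had no window of their own, 63 had at most 49, and 13 (11.3%) had at least 50% in other genes. The annotated ends showed no steady order with IsoPct. Of the members at 50 or above with a coding neighbour, 60.7% end more than 50 bases upstream of the highest coding transcript. The share was 52.3% of the other members at 10 or above in both libraries, 75.1% of those at 0 in both, and 65.3% of all members. The part of shared sequence or of annotated ends in the IsoPct values was not tested.

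The deposited posterior SD gives the error of the assignment itself. Over the 960 members with at least 100 counts in each library, its median was 12.1% of the posterior mean count in library 1 and 13.01% in library 2. Coding transcripts of the same genes had 7.44% and 8.54% (3923 transcripts). In members the SD was a median 2.45 and 2.39 times that of plain counting. It fell with the number of own windows, from 14.4% and 16.2% with none to 6.70% and 6.94% with 500 or more. Members with fewer windows of their own thus had the larger errors.

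**Figure D5:**
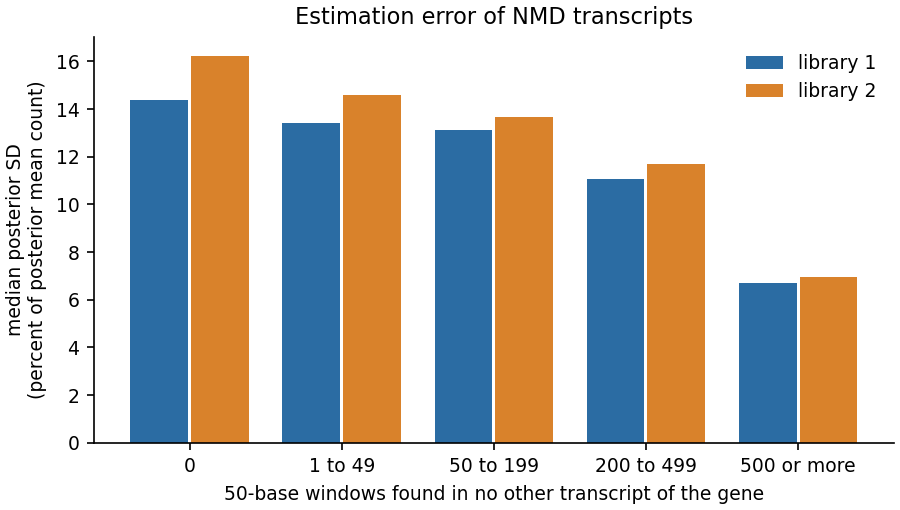
Median posterior SD as a percent of the posterior mean count (y axis, from 0) by the number of 50-base windows that a member shares with no other transcript of its gene (x axis), in library 1 (blue) and library 2 (orange). The 960 members with at least 100 counts in each library are shown, and the SD is 14.4% and 16.2% with no own window and 6.70% and 6.94% with 500 or more.

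Differences between the libraries were as common among members as among all transcripts of the same genes in 1 direction and more common in the other. A difference was called at a 2-fold change in IsoPct, for transcripts with at least 50 counts summed over both libraries, with no test because each side is 1 library. Of 2165 members, 306 (14.1%) were higher in library 2, beside a background of 14.2% of 12515 transcripts. Higher in library 1 were 360 (16.6%), beside 12.8%. Protein-coding transcripts had 12.4% and 12.3%, and retained-intron transcripts 17.2% and 11.3%. The share in library 2 was at the background, and the median log2 ratio of members, library 2 over library 1, was -0.02.

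Ratios were ranked among members with at least 50 summed counts and an IsoPct above 0 in both libraries. The largest were in members listed near 0 in 1 library. Members at an IsoPct of exactly 0 in 1 library were not ranked. Their counts in the other library reached 1375 in library 1 and 504 in library 2. Nadsyn1-207 had an IsoPct of 0.15 and 32.84, on 0.46 and 159 counts, and Lilrb4a-205 had 0.04 and 16.50, on 0.25 and 154 counts. Zbtb49-205 had 34.79 and 0.02, on 282 and 0.20 counts, and Rnaseh1-204 had 23.52 and 0.08, on 155 and 0.45. No fold is given, since 1 library is under 3 expected counts in each of these. The deposited posterior mean counts of the same transcripts were not near 0: Nadsyn1-207 had 28.7 and 153, Lilrb4a-205 31.9 and 95.8, Zbtb49-205 190.6 and 42.98, and Rnaseh1-204 162 and 61.7. The 2 deposited estimates thus agree in direction for these 4 and not on a near absence. Of the 4, only Lilrb4a-205 shares windows with other genes, at 97.1% of its windows, and the TPM of its gene was 26.63 and 51.69. Within their genes, Lilrb4a-205 and Zbtb49-205 have no window of their own, and Nadsyn1-207 and Rnaseh1-204 have 47 and 49. Bcl7c-202 (0.01 and 1.69, on 1.05 and 107.7 counts) and Lrrc28-210 (0.15 and 5.30) differ from these in having 5386 and 3865 own windows. Tcf12-220 had 10.47 and 0.06, Dkc1-207 0.07 and 9.14, Zcchc8-205 6.47 and 0.01, and Ptbp3-203 4.75 and 0.02. Their posterior mean counts were 438 and 111 for Tcf12-220, 23.1 and 72.03 for Dkc1-207, 53.99 and 21.1 for Zcchc8-205, and 39.96 and 21.1 for Ptbp3-203. For Bcl7c-202 (1.12 and 107.7) and Lrrc28-210 (2.53 and 73.96) both estimates were under 3 counts in library 1.

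The libraries held 26593267 and 22036331 expected counts over all annotated transcripts, and member genes took 28.9% and 28.8% of them. Defining T cell genes (Cd3e, Cd3g, Cd4, Lck and Trbc2) summed to a TPM of 7657 and 7411, and regulatory T cell genes (Foxp3, Il2ra, Ikzf2, Ctla4 and Tnfrsf18) to 784 and 759, with none at 0. Markers of 4 erythroid genes summed to 4824 in library 1 and 56.6 in library 2 (3 of the 4 reached a TPM of 1 in each library), those of 2 CD8 T cell genes to 26.98 and 13.5, of 4 B cell genes to 536 and 504, and of 4 macrophage genes to 25.1 and 29.2. That TPM was reached by 1 of the 2 CD8 genes, 2 of the 4 macrophage genes and all 4 B cell genes. The erythroid and CD8 sums thus moved with the libraries, and their part in the differences between libraries was not tested. Fewer cells of a type and less RNA per cell cannot be told apart in bulk RNA.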

How the data were processed

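The gene TPM, transcript TPM and expected count tables were made by the authors from transcriptome alignments (mm10, GENCODE M21), per the deposited description. An expected count is an estimate that divides shared reads among transcripts, per the file headers. IsoPct is the percent of gene TPM in a transcript, as deposited by the authors, and it sums to 100 within a gene. The posterior mean and SD of the count are also as deposited by the authors. Which aligner and which quantifier were run is not given in the sources used here. Nothing states whether reads were counted by strand, which leaves overlapping genes uncertain.

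Transcript types, exons, stop codons, support levels and sequences came from GENCODE M21. All 50-base windows of each transcript were compared with those of every other transcript of its gene and, on both strands, with all other genes. Effective lengths were 49 bases below annotated lengths. Expected counts were rounded to whole numbers only for Wilson intervals, at a level of 95%. Python 3.11.15, pandas 2.3.3, numpy 2.4.6, scipy 1.17.1 and matplotlib 3.10.9 were used, and calculations were tested on simulated data.

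Members named are the 12 with the highest mean expected count and the 12 with the highest mean IsoPct at 100 or more counts in each library. Also named are the 4 highest of each gene list at 50 or more, and the 3 nearest the TPM minimum on each side. The 5 with the largest ratio in each direction are named too. They were taken from members with at least 50 summed counts and an IsoPct above 0 in both libraries. A few genes at or near 0, and other genes of the lists, were named after their values were seen. The members and gene lists were chosen with earlier results of these data known. The whole-number gene counts that were also deposited hold no transcripts and were not used here. Some items are not reported here.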

Additional observations from a re-analysis of the deposited data

How the results depend on the processing

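No paired analysis was possible because there is 1 group and no second group to pair it with. The share of counts in NMD transcripts (11.4%) was 11.4% with a TPM minimum of 1 and 11.3% with 20, but 14.9% as a share of TPM and 12.9% with support levels 1 to 3. Among alternatives chosen after seeing the data, it was 10.3% without genes that have a member with at least 50% of its windows in other genes or only NMD transcripts, 10.9% without Ppia, and 9.18% without genes that have a member of under 50 own windows. The median NMD percent per gene (6.19) was 5.83 with a TPM minimum of 20, 3.85 from expected counts, 7.15 with support levels 1 to 3, 16.3 with at least 10 NMD counts in each library, and 4.30 without genes that have a member of under 50 own windows. With 1 library left out it was 5.595 to 5.68, over the 2988 and 2927 genes that the other library alone admits. The count of genes at 50 or above in both libraries (165) was 198 with a TPM minimum of 1 and 115 with 20. It was 155 from expected counts, 147 without the genes shared with others, and 46 without those of under 50 own windows, where fewer genes were counted. With 1 library left out it was 203 to 226, where the limit fell on the other library alone and more genes were counted. The 666 members with a 2-fold difference became 1260 at 10 or more summed counts and 409 at 100 or more, where the number of members counted also changed. Depth limits the low members: 1413 of 4765 were under 3 counts in both libraries.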

Other observations

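High members with little sequence in other genes were looked at apart, in a set chosen after their values were seen: an IsoPct of at least 50 in both libraries, at least 100 own windows and under 10% of windows in other genes. Within their own gene most of their windows are still shared with other transcripts, as in Syne2-206, with 104 own windows of 3557. This left 26 members, 17 of them at support level 1, and 8 had the stop in an exon outside the coding exons. Pik3cb-203, of a catalytic subunit of phosphoinositide 3-kinase, had an IsoPct of 90.95 in library 1 and 79.01 in library 2 (85.0 ± 8.44, SD, n = 2), with 462 own windows and 608 and 645 counts. Sh2b3-205, of the adaptor Lnk that restrains cytokine signalling, had 78.25 and 66.58 on 2437 and 1781 counts. Its stop lies in an exon that spans an intron of the coding transcripts. Ppp2r2a-203, of a regulatory subunit of the phosphatase PP2A, had 76.93 and 71.62 on 2972 and 2494 counts. Mr1-204, of the molecule that presents vitamin B metabolites to MAIT cells, had 55.87 and 52.33 on 323 and 343 counts, with 644 own windows.

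Other members of this set have the stop in an exon outside the coding exons, as in Ikzf4-208. Anapc4-207, of a subunit of the anaphase-promoting complex, had 74.97 and 69.13 with a 73-base exon. Dnajc5-204, of a J-domain co-chaperone, had 54.42 and 57.44 with a 75-base exon, and Ostf1-205 had 83.94 and 81.50 with a 77-base exon. Wbp4-202, of a spliceosomal protein, had 61.52 and 61.49 with an 81-base exon. In the last 3 the libraries differed by less than 4 percentage points.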
